A study of Homo sapiens with 8 samples.

Results

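CDK inhibitor transcripts were examined on 8 Illumina expression arrays of SK-OV-3 and TOV-21G cells, both established ovarian carcinoma lines, after silencing of CSE1L. The genes considered were CDKN1A, CDKN1B, CDKN1C, CDKN2A, CDKN2B, CDKN2C, CDKN2D and CDKN3, and every probe that the array annotation assigned to 1 of these 8 symbols was taken and described separately. This gave 12 of the 24531 probes, for 7 of the 8 genes and of the 16922 gene symbols on the array. CDKN2C was not analysed here. The 4 groups were SK-OV-3 with a scrambled control siRNA, SK-OV-3 with an siRNA against CSE1L, and the same pair of treatments in TOV-21G, each with 2 arrays numbered as experiments 1 and 2. All cells, controls included, had been transfected, and total RNA was taken 72 h later, so no untransfected cells and no second siRNA against CSE1L were among the samples used here. The comparisons address how these inhibitors respond to loss of CSE1L in each line, and how the lines differ in the control state.

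CDK inhibitors hold back the cyclin-dependent kinases that drive the cell cycle. The Cip/Kip family, encoded by CDKN1A (p21), CDKN1B (p27) and CDKN1C (p57), binds cyclin-CDK complexes, chiefly those of CDK2. The INK4 family, encoded by CDKN2A (p16), CDKN2B (p15), CDKN2C (p18) and CDKN2D (p19), binds CDK4 and CDK6 and keeps them from D-type cyclins. CDKN2A also encodes ARF, an inhibitor of MDM2, from an alternative first exon. CDKN3 is a phosphatase that acts on CDK1 and CDK2 and is itself transcribed mainly in dividing cells. CDKN1A is the classical transcriptional target of p53. SK-OV-3 is known to lack p53 function, whereas TOV-21G is known to retain it. The siRNA target CSE1L encodes the export receptor that returns importin alpha to the cytoplasm.

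The promoters of CDKN1A and CDKN3 are shown because these genes had the largest log2 difference above 0 and the largest below 0 after silencing in TOV-21G among the members tested. Each is the 250 bases before a RefSeq start site in GRCh38.p14, written 5′ to 3′ on the strand of the gene. In the CDKN1A promoter, at chr6:36678464-36678713 on the plus strand, capitals mark GC boxes (GGGCGG), a motif that the Sp1 family binds. In the CDKN3 promoter, at chr14:54396757-54397006 on the plus strand, capitals mark a match to the CHR, the cell cycle genes homology region (TTTGAA), which lies on the minus strand and so reads TTCAAA here.
CDKN1A promoter: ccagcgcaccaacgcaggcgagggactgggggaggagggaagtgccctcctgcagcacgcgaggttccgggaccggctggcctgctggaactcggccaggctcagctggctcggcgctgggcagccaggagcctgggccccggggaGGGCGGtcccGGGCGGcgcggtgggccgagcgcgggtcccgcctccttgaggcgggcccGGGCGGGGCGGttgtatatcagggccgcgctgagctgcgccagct
CDKN3 promoter: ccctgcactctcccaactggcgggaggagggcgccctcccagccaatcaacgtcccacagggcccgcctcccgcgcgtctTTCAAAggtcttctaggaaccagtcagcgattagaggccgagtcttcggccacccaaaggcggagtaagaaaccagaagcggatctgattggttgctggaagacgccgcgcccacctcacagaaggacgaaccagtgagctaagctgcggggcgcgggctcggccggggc
The table of promoters does not say which of the CDKN1A transcripts this start belongs to. CDKN1A held 4 GC boxes, beginning 104, 94, 45 and 40 bases before the start, the last pair sharing 1 base, and 1 E-box (CAGCTG) at 148 bases. CDKN3 held 1 CHR match at 170 bases and CCAAT on the plus strand at 208 and on the minus strand at 83 bases, with no GC box. Searched on both strands over 35116 promoters of the same length, GGGCGG was present in 42.6%, TTTGAA in 13.3%, CAGCTG in 14% and CCAAT in 32%. These matches are descriptions of letters and no binding was measured.

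The arrays detected between 9206 and 9820 probes each (37.5% to 40% of all), with a probe called detected at a detection p below 0.01 against the negative control beads, and their number limits the precision of every value. The correlation of replicates across probes was between 0.971 and 0.981. The CSE1L probe gave log2 intensities of 12.04 and 12.56 in SK-OV-3 control cells, 10.51 and 8.99 in silenced SK-OV-3, 13.02 and 11.65 in TOV-21G control cells and 8.80 and 7.72 in silenced TOV-21G. The silenced arrays thus lay below the control arrays in both lines. The change was -4.08 in TOV-21G (SE 0.63, limma adjusted p = 0.0266) and -2.55 in SK-OV-3, which did not pass (SE 0.63, adjusted p = 0.265). The TOV-21G call failed when TOV-21G control replicate 1 (adjusted p = 0.159), control replicate 2 (0.0854) or silenced replicate 2 (0.117) was left out and in the fit to TOV-21G alone (0.101). KRT7, KRT8, KRT18 and KRT19, keratins of epithelial cells, were detected in all 4 groups, while EPCAM and CLDN4 were detected in none, CDH1 only in TOV-21G control cells and MUC1 only in SK-OV-3 control cells. KRT19 in TOV-21G was detected only on replicate 1 of each group, at raw intensities of 259 and 294, and MUC1 only on replicate 2. ERBB2, amplified in SK-OV-3, and GRB7 together summed to raw intensities of 37718 to 55020 in SK-OV-3 and 4130 to 5359 in TOV-21G. Of 8 fibroblast probes 1 or 2 per group were detected in SK-OV-3 (summed intensity 1303 to 1546) and 4 in TOV-21G (3206 to 3970, COL1A1, DCN and PDGFRA), so this sum moved with the line; its part in the differences between lines was not tested. All 4 endothelial probes were undetected, and of 8 leukocyte probes only 1, of CD14, was detected, in every group except SK-OV-3 control.

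Of the 12 CDK inhibitor probes, 6 passed the detection filter of detection in at least 2 arrays. They were both CDKN1A probes and 1 probe each of CDKN2A, CDKN2B, CDKN2D and CDKN3. The other 6 were those of CDKN1B and CDKN1C, the remaining pair for CDKN2A, and 1 each for CDKN2B and CDKN2D. The plot of member intensities by array shows all 12. CDKN1A, CDKN2D and CDKN3 each had a probe detected on all 8 arrays. Their spread was no smaller for that. The SE of a silencing change was 0.51, 0.33 and 0.42 for these probes, and 0.31 to 0.37 for the other tested probes.

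**Figure D1:**
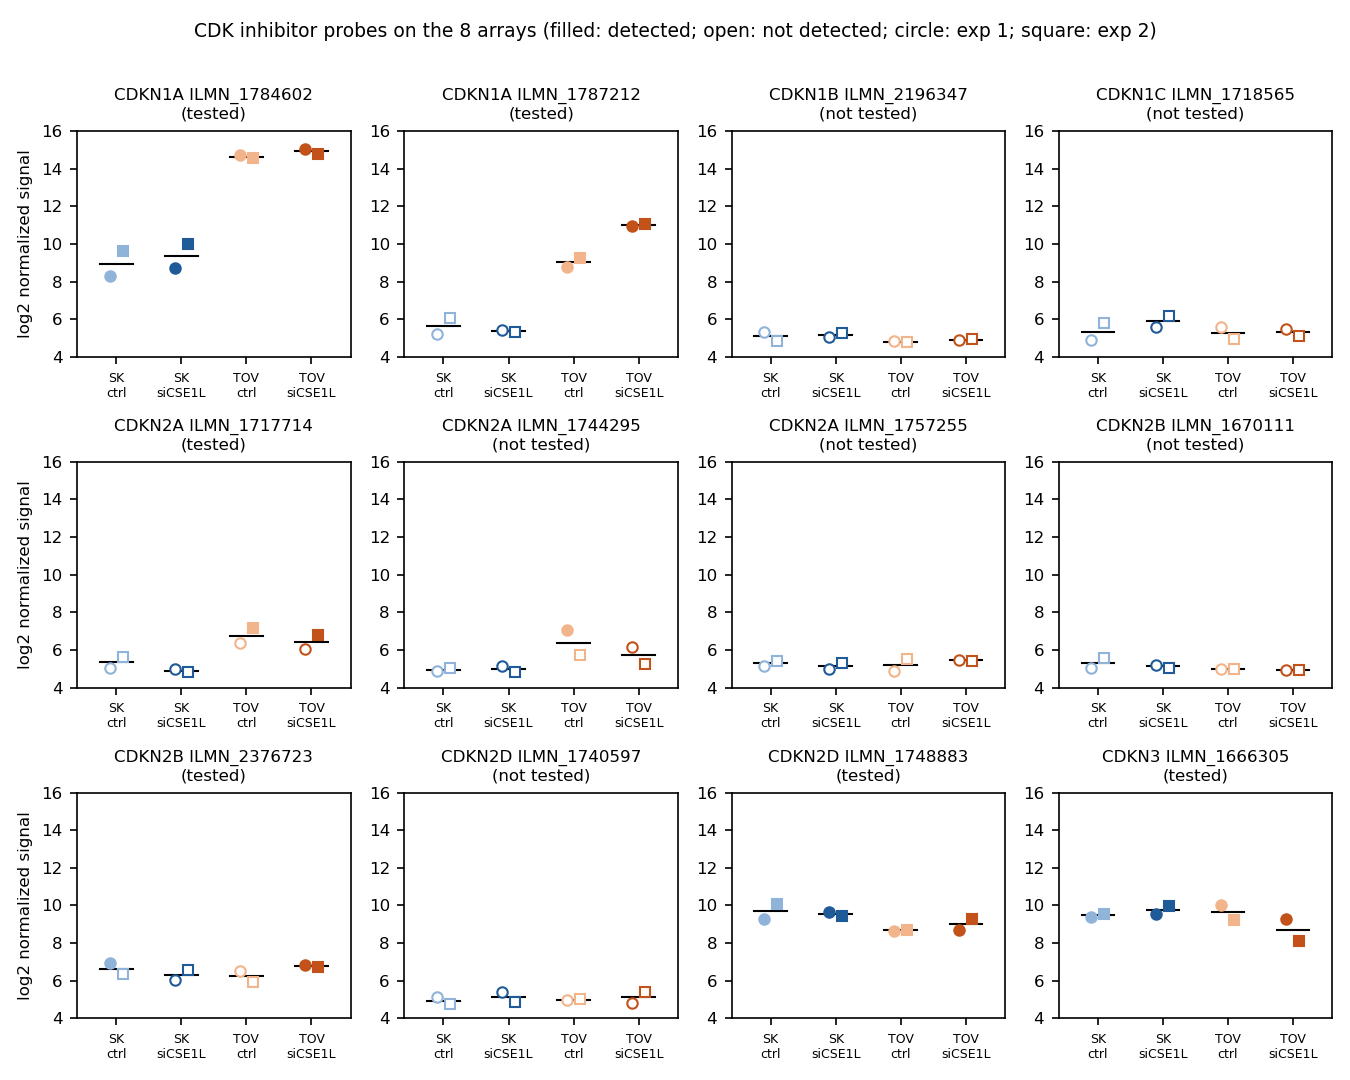
Normalized log2 intensity of the 12 CDK inhibitor probes, 1 panel each, in the 4 groups, with circles for experiment 1, squares for experiment 2 and a line at the group mean. Filled symbols are detected (detection p below 0.01) and open ones are not: the brighter CDKN1A probe lies between 8.30 and 10.01 in SK-OV-3 and between 14.57 and 15.07 in TOV-21G, and 5 probes are open on every array.

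CDKN1A was the member that differed most between the lines and the only one that rose after silencing, and it rose by 1 of its probes and in TOV-21G. The brighter probe, ILMN_1784602, read 8.30 and 9.62 on the log2 scale in SK-OV-3 control cells, 8.72 and 10.01 in silenced SK-OV-3, 14.71 and 14.57 in TOV-21G control cells and 15.07 and 14.79 in silenced TOV-21G. Every TOV-21G array stood above every SK-OV-3 array. Within SK-OV-3 the replicates were further apart than the treatments, whereas in TOV-21G both silenced arrays lay above both control arrays. The control means were 8.96 ± 0.94 (SD, n = 2) in SK-OV-3 and 14.64 ± 0.10 (SD, n = 2) in TOV-21G. CDKN1A was thus 5.68 higher on the log2 scale in TOV-21G control cells, or 51.4-fold (SE 0.51, 95% interval 4.51 to 6.86, limma adjusted p = 9.8e-05). Silenced minus control was 0.40 for SK-OV-3 (SE 0.51, 95% interval -0.77 to 1.58, adjusted p = 0.868). For TOV-21G it was 0.29 (SE 0.51, 95% interval -0.89 to 1.46, adjusted p = 0.817), and neither passed. Non-normalized intensities in SK-OV-3 were 466 and 836 in control and 412 and 1183 in silenced cells. In the first experiment the raw value was therefore lower after silencing, at 0.884 of control, and became higher by 0.42 on the log2 scale after normalization. Within the second experiment the normalized difference was 0.39, and with the replicate block the adjusted p in SK-OV-3 was 0.374. With each of the 8 arrays left out in turn, which breaks a pair, the value ran from -0.26 to 1.07, and it was below 0 without control replicate 1 (-0.26) and without silenced replicate 2 (-0.24).

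The dimmer probe, ILMN_1787212, carries the same transcript accession in the annotation, NM_078467. It was undetected on all 4 SK-OV-3 arrays, at 5.24 and 6.06 in control and 5.41 and 5.32 in silenced cells. In TOV-21G it was detected on every array, at 8.77 and 9.28 in control and 10.97 and 11.06 in silenced cells, with raw intensities of 604 and 815 against 2312 and 2358. Both silenced TOV-21G arrays stood well above both controls, and same-numbered arrays differed by 2.21 and 1.78. The rise of 1.99 on the log2 scale, or 3.98-fold, passed (SE 0.31, 95% interval 1.28 to 2.71, limma adjusted p = 0.0266). This call was lost without any 1 of the 4 TOV-21G arrays or either silenced SK-OV-3 array (adjusted p = 0.0506 to 0.165, with changes of 1.75 to 2.24). It was also lost with only the 4 TOV-21G arrays in the fit (0.0995). The intervals of the brighter and the dimmer probe, -0.89 to 1.46 and 1.28 to 2.71, overlap only between 1.28 and 1.46. The difference between the probes was not itself tested, and probe sequences were not used here. In bulk RNA a change in the share of cells that express the gene and a change in RNA per cell cannot be told apart.

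In SK-OV-3 the dimmer probe changed by -0.29 (SE 0.31, adjusted p = 0.840), below detection on both sides, so no fold is given. Its change in TOV-21G exceeded its change in SK-OV-3 by 2.28 (SE 0.44, 95% interval 1.27 to 3.30, adjusted p = 0.183), and it did not pass over all probes although its unadjusted p was 0.000844. On the intensities normalized by the authors this difference was 1.70 and passed (adjusted p = 0.0449). The mean of both lines was 0.85 and did not pass (SE 0.22, adjusted p = 0.0897), but it did so with no background correction (0.82, adjusted p = 0.0139), with an offset of 50 (0.87, 0.0347) and on the authors' values (0.80, 0.0110). The difference and the mean both use SK-OV-3 arrays on which the probe was undetected, where a change could not be measured. Nothing is therefore read from either. In control cells the dimmer probe was 3.37 higher in TOV-21G, at least 5.05-fold in this processing against the lowest detected signal of the SK-OV-3 arrays (SE 0.31, limma adjusted p = 0.000114). This probe entered the test only through TOV-21G, so a difference between lines was partly built in. The log2 difference was 1.90 without background correction and 1.66 on the intensities the authors had normalized, both of them smaller than that bound, which therefore holds for this processing only.

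**Figure D2:**
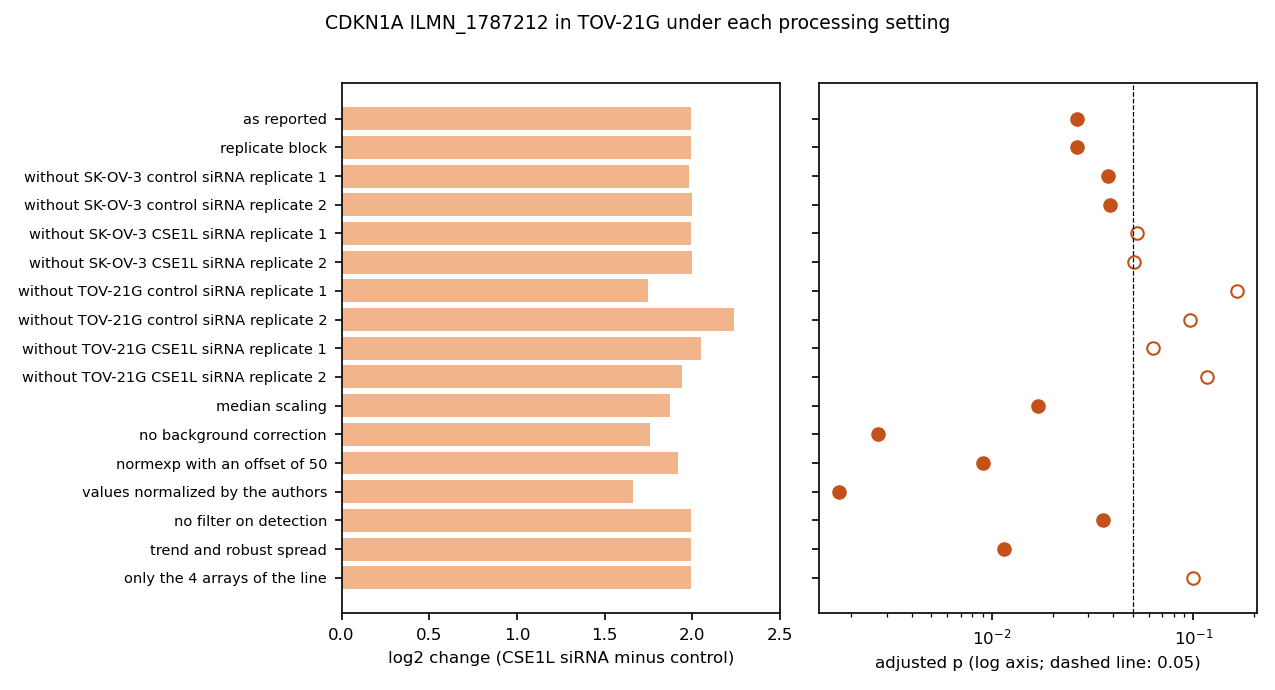
Log2 change of the dimmer CDKN1A probe in TOV-21G (bars, left) and its adjusted p on a log axis (points, right, filled below the dashed line at 0.05) as reported, under each processing alternative and with each array left out. The change stays between 1.66 and 2.24, while the adjusted p lies on either side of the line.

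The other Cip/Kip members gave no measurable signal. CDKN1B, which encodes the inhibitor p27 that accumulates in resting cells, had 1 probe, ILMN_2196347, with raw intensities of 115 to 158 and detection p-values of 0.162 to 0.916. CDKN1C, an imprinted gene that encodes p57, also had 1 probe, ILMN_1718565, at 130 to 199 with detection p-values from 0.0180 to 0.683. Both were undetected on all 8 arrays, which bounds the signal of these probes and does not show that the transcripts were missing.

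Among the INK4 members 0 of 3 tested probes passed after silencing. Between control lines the CDKN2D probe passed, a call that some alternatives lost. The CDKN2A probe also passed but reached the filter only through TOV-21G, so nothing is read from its call. CDKN2D was the only one detected throughout, by ILMN_1748883, at 9.26 and 10.10 in SK-OV-3 control cells, 9.65 and 9.43 in silenced SK-OV-3, 8.63 and 8.72 in TOV-21G control cells and 8.70 and 9.28 in silenced TOV-21G. TOV-21G control arrays lay below SK-OV-3 control arrays, by 1.01 on the log2 scale or 2.01-fold (SE 0.33, limma adjusted p = 0.0460). That call was lost in 9 of 20 alternatives, among them the fits without either TOV-21G control array (adjusted p = 0.151 and 0.123), without either silenced SK-OV-3 array (0.0678 and 0.0659) and without SK-OV-3 control replicate 2, where the difference was -0.59 (adjusted p = 0.237). For CDKN2D silenced minus control was -0.14 in SK-OV-3 (SE 0.33, 95% interval -0.89 to 0.61, adjusted p = 0.938). In TOV-21G it was 0.32 (SE 0.33, 95% interval -0.43 to 1.07, adjusted p = 0.661), both within the spread of replicates. A second CDKN2D probe, ILMN_1740597, was undetected on all 8 arrays (raw 118 to 175).

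CDKN2A was at the edge of detection. Its tested probe, ILMN_1717714, read 5.06 and 5.65 in SK-OV-3 control, 4.97 and 4.81 in silenced SK-OV-3, 6.36 and 7.15 in TOV-21G control and 6.05 and 6.80 in silenced TOV-21G. It was detected only on the second-experiment array of each TOV-21G group. All 4 TOV-21G arrays were brighter than all 4 SK-OV-3 arrays, and the control difference of 1.40 (SE 0.37, limma adjusted p = 0.0212) amounts to at least 1.05-fold in this processing, since SK-OV-3 was below detection. As with the dimmer CDKN1A probe, this probe entered the test only through TOV-21G, so a higher value there was partly built in, and nothing is read from this p-value. It no longer passed when SK-OV-3 control replicate 1 was left out (1.10, adjusted p = 0.120) or on the authors' values (0.40, adjusted p = 0.161). Without background correction it was 0.58, and with an offset of 50 it was 0.93. Without either of the second-experiment TOV-21G arrays the probe did not reach the filter. After silencing it changed by -0.46 in SK-OV-3 (SE 0.37, adjusted p = 0.768) and -0.33 in TOV-21G (SE 0.37, adjusted p = 0.691). A probe for the ARF transcript NM_058195, ILMN_1744295, was detected on 1 array, TOV-21G control replicate 1, at 7.06 (detection p 0.00301), against 5.73 on the other control array and 6.18 and 5.27 in silenced cells. The third CDKN2A probe, ILMN_1757255, was undetected throughout (raw 121 to 195).

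CDKN2B, which lies beside CDKN2A in the genome, was detected on 3 of 8 arrays by ILMN_2376723. Its values were 6.95 and 6.33 in SK-OV-3 control, 6.06 and 6.56 in silenced SK-OV-3, 6.54 and 5.91 in TOV-21G control and 6.84 and 6.71 in silenced TOV-21G. Detection held on SK-OV-3 control replicate 1 and on both silenced TOV-21G arrays. Those silenced arrays lay above both TOV-21G controls, by 0.55 on average (SE 0.32, 95% interval -0.19 to 1.29), which did not pass (adjusted p = 0.406). The probe reached the filter only through these silenced arrays, so a higher value there was partly built in. In SK-OV-3 the difference was -0.33 (SE 0.32, adjusted p = 0.819), and between control lines -0.42 (SE 0.32, adjusted p = 0.358). The other CDKN2B probe, ILMN_1670111, was undetected on every array (raw 128 to 162).

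CDKN3 differs from the families above in being a phosphatase gene. Its probe, ILMN_1666305, read 9.40 and 9.57 in SK-OV-3 control, 9.53 and 9.98 in silenced SK-OV-3, 10.04 and 9.25 in TOV-21G control and 9.27 and 8.11 in silenced TOV-21G. The ranges of control and silenced arrays overlapped in both lines. Silenced minus control within an experiment was 0.13 and 0.41 for SK-OV-3, against -0.77 and -1.14 for TOV-21G. The TOV-21G difference of -0.96 (SE 0.42, 95% interval -1.92 to 0.01) had an unadjusted p of 0.0519 and did not pass (limma adjusted p = 0.260, and 0.0553 with the replicate block). Without silenced replicate 1 it was -1.55, without silenced replicate 2 it was -0.37, and without control replicate 1 it was -0.57. The SK-OV-3 difference was 0.27 (SE 0.42, adjusted p = 0.891). TOV-21G minus SK-OV-3 was -1.23 (SE 0.59, 95% interval -2.59 to 0.14, adjusted p = 0.542). CDKN3 did not separate the control lines (0.16, SE 0.42, adjusted p = 0.803).

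**Figure D3:**
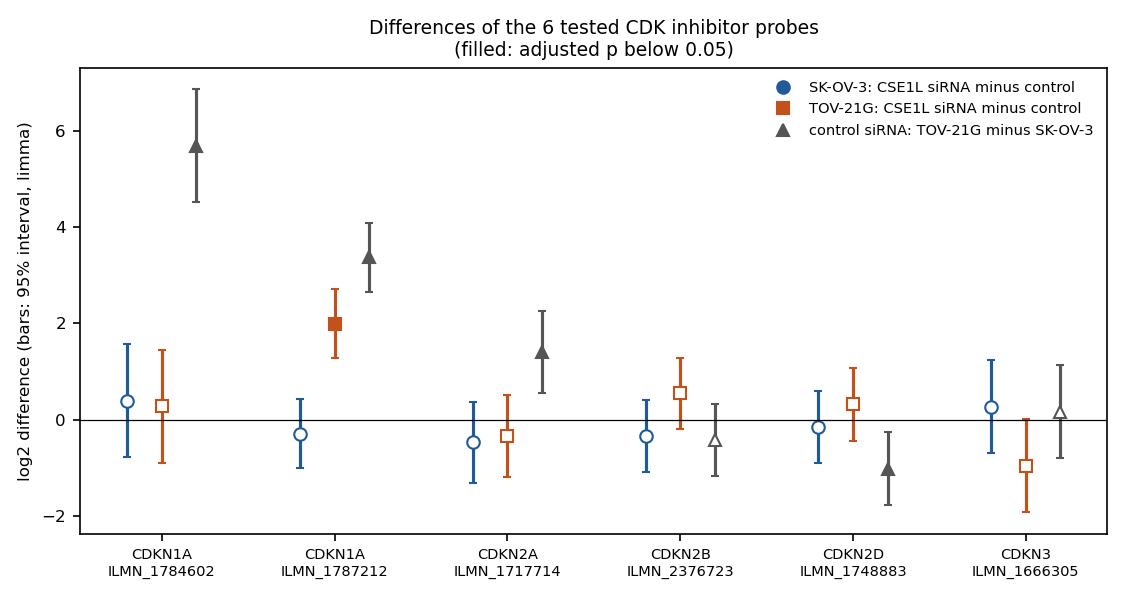
Log2 differences of the 6 tested CDK inhibitor probes after silencing in SK-OV-3 (circles), after silencing in TOV-21G (squares) and between control lines (triangles), with 95% intervals from limma. Filled symbols pass an adjusted p of 0.05 over all probes tested: the only filled square is the dimmer CDKN1A probe at 1.99, and the highest triangle is the brighter CDKN1A probe at 5.68.

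Set against all probes, the member counts were as follows. In SK-OV-3 silencing 0 of the 6 tested probes passed, by adjusted or unadjusted p, where 0% of all 10888 tested probes passed after adjustment and 1041 (9.56%) had an unadjusted p below 0.05. The member median was -0.21, and -0.01 over all probes. In TOV-21G silencing 1 of 6 rose and 0 fell, where 3.07% of all probes passed, 1.1% as higher and 1.97% as lower, and 19.6% had an unadjusted p below 0.05. The member median there was 0.30 against 0.01, with 4 probes above 0 and 2 below. Control and silenced arrays did not overlap for 3 of 6 members in TOV-21G, where this held for 48.7% of all probes, and for 1 of 6 in SK-OV-3, where it held for 41.7%. The members in TOV-21G were both CDKN1A probes and that of CDKN2B. CDKN2B reached the filter only through silenced TOV-21G arrays, so a higher value there was partly built in. Nothing is read from this count or from the TOV-21G member median. For the mean of both lines 0 of 6 passed (1 by unadjusted p), where 1.99% of all probes did, 0.882% as higher, and 20.1% by unadjusted p. For the difference between the lines' changes 0 of 6 passed (1 by unadjusted p), where 0% of all probes passed and 1085 (9.97%) had an unadjusted p below 0.05. Between control lines 3 of 6 were higher and 1 lower in TOV-21G, where 32.9% of all probes passed, 16.9% as higher and 16% as lower, and 43.3% by unadjusted p. Arrays of the control lines did not overlap for 4 of 6 members, where they did not for 68% of all probes, 36.3% of them with TOV-21G lower. As the dimmer CDKN1A probe and CDKN2A reached the filter only through TOV-21G, a higher value there was partly built in. Nothing is therefore read from the count of calls between control lines or from that of arrays that did not overlap. All these p-values measure only the spread between arrays, and the labels do not say whether the experiments were separate cultures.

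Among the cyclins, CDKs and enzymes that act on CDKs, CDC25A, CDC25C, PKMYT1 and CCNA2 fell in TOV-21G. In that line 1.97% of all tested probes passed as lower and 1.1% as higher. Of 24 tested probes for 18 cyclins, CDKs and their regulators, 5 probes of 4 genes fell and 0 rose, and 20 lay below 0 (median -0.42, and 0.01 over all probes). None of the tested CDK probes was among them: the probes of CDK2, CDK3, CDK4, CDK6 and CDK7 lay between -0.55 and 0.32. CDK1 had no tested probe, so nothing is said of it. CDC25C and CDC25A encode phosphatases that remove inhibitory phosphate from CDKs. CDC25C read 9.51 and 9.36 in control and 7.98 and 7.67 in silenced TOV-21G and fell by 1.61 (SE 0.21, limma adjusted p = 0.0225). A second CDC25C probe, ILMN_2407619, also fell, by 1.76 (adjusted p = 0.0446), and another, ILMN_1725260, was at -0.69 and did not pass (0.378). CDC25A fell by 1.33 by 1 probe (SE 0.20, adjusted p = 0.0265) and was at -0.84 by ILMN_1733396, which did not pass (0.271). PKMYT1, a kinase that inhibits CDK1, fell by 1.49 (SE 0.25, adjusted p = 0.0285). CCNA2, cyclin A2, the partner of CDK2 in S phase, read 11.48 and 11.72 in control and 10.21 and 8.86 in silenced cells and fell by 2.06 (SE 0.41, adjusted p = 0.0420). Its estimate ran from -2.76 to -1.38 with single arrays left out, and the call was lost in 7 of those 8 fits, all except that without silenced TOV-21G replicate 1. In SK-OV-3 0 of the 24 passed (median -0.09). CCND1, cyclin D1, the D-type partner of CDK4 that INK4 proteins displace, read 14.37 and 14.09 in control and 12.78 and 13 in silenced SK-OV-3, a difference of -1.34 (SE 0.22, adjusted p = 0.124). It passed there with no background correction (adjusted p = 0.0268) and with a trend and robust spread (0.00847).

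Downstream of the CDKs, 2 of 14 probes for pocket proteins, E2F factors and their partners fell in TOV-21G and 0 rose (median -0.56, 11 below 0). Over all tested probes 1.97% passed as lower and 1.1% as higher, with a median of 0.01. RBL1, the pocket protein p107, read 8.72 and 8.74 in control cells and was undetected in silenced TOV-21G, at least 4.71-fold lower in this processing (limma adjusted p = 0.0151). Its change of -2.54 (SE 0.22) was -1.45 without background correction and -1.32 on the authors' normalized intensities, both smaller than that bound. E2F2, an activating E2F, fell by 2.15 (SE 0.32, adjusted p = 0.0265). FOXM1 (-0.94, adjusted p = 0.0595) and E2F4 (-0.73, adjusted p = 0.119) did not pass, although FOXM1 passed with the replicate block (adjusted p = 0.0444) and in 5 other alternatives (0.0191 to 0.0427). In SK-OV-3 0 of 14 passed (median -0.10), with E2F4 at -0.45 (adjusted p = 0.560) and E2F5 at -0.46 (adjusted p = 0.606).

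The p53 targets other than CDKN1A comprised 21 tested probes of 17 genes. In TOV-21G silencing 3.07% of all tested probes passed, 1.1% as higher and 1.97% as lower, with a median of 0.01. Of the 21 probes of this list 0 passed, with 17 above 0 and 4 below (median 0.34). Those with the smallest p were GADD45A, a stress-induced gene of growth arrest (1.71, SE 0.55, adjusted p = 0.143), GDF15, a secreted cytokine (0.81, SE 0.26, adjusted p = 0.147), the exonuclease gene AEN (0.84, SE 0.34, adjusted p = 0.230) and the DNA repair gene XPC (0.49, SE 0.21, adjusted p = 0.245). In SK-OV-3 0 passed (median 0.08), where 0% of all probes did (median -0.01). TP53I3 was there at -1.02 by its brighter probe, ILMN_2358919 (SE 0.22, adjusted p = 0.219), and at 0.03 by ILMN_1651967, undetected in that line. SFN was at -1.05 (SE 0.27, adjusted p = 0.277). Between control lines 13 probes of 11 genes were higher in TOV-21G and 1 was lower, where 16.9% and 16% of all probes were, with a median of 1.36 against -0.07 over all probes. The genes of that contrast are named with their values known. GDF15 read 6.11 and 5.77, undetected, in SK-OV-3 control and 13.35 and 13.84 in TOV-21G control cells, at least 120-fold higher in this processing (limma adjusted p = 1.97e-06). Its log2 difference of 7.66 was 6.04 without background correction and 5.69 on the authors' normalized intensities, both below that bound. TP53I3, by its brighter probe, was 2.49 higher (SE 0.22, adjusted p = 8.51e-05). TIGAR, a regulator of glycolysis, was at least 2.73-fold higher in this processing (adjusted p = 0.00158), but its log2 difference of 2.62 was 1.32 without background correction and 1.09 on the intensities the authors had normalized, again below the bound. GDF15, TIGAR and the dimmer TP53I3 probe, ILMN_1651967, were undetected on all 4 SK-OV-3 arrays and reached the filter only through TOV-21G, so nothing is read from the count over this list. MDM2, the ubiquitin ligase that degrades p53, was higher by 1.54 (SE 0.38, adjusted p = 0.0158), a call that did not hold when the second control array of SK-OV-3 (adjusted p = 0.0991) or of TOV-21G (0.0958) was left out. SFN was lower, at -0.88 (SE 0.27, adjusted p = 0.0375).

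**Figure D4:**
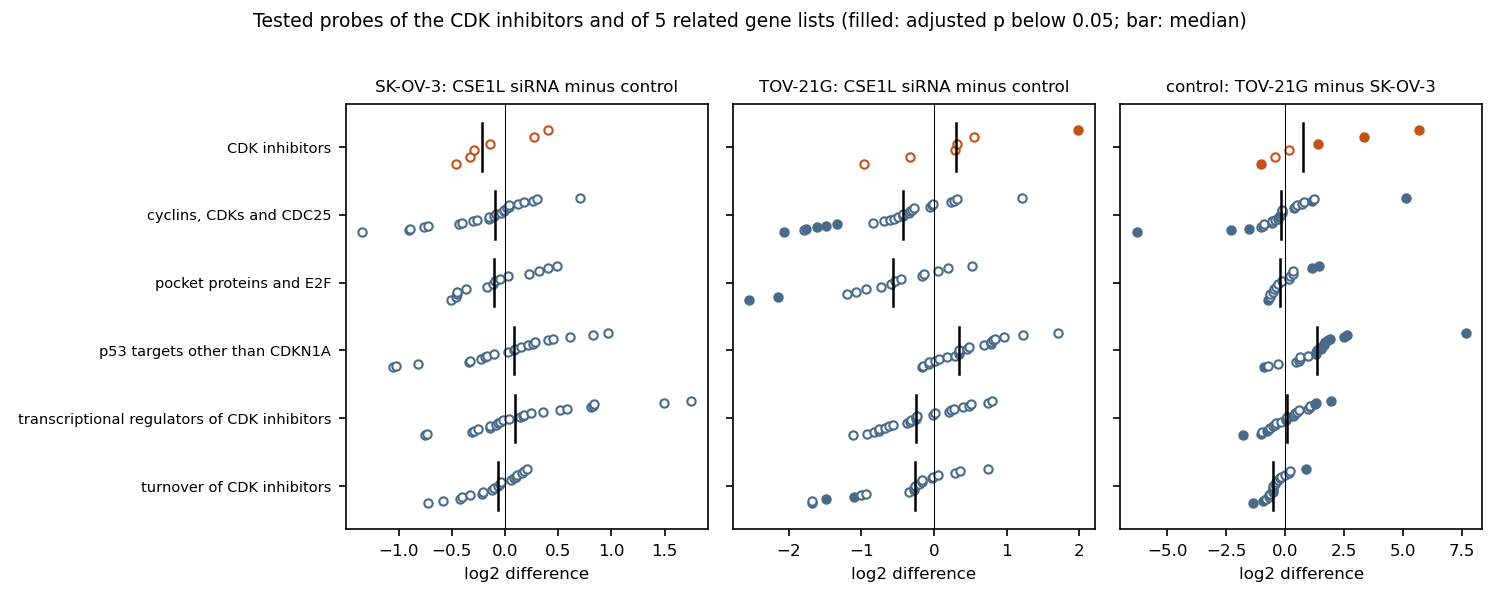
Log2 differences of the tested probes of the CDK inhibitors and of the 5 related gene lists after silencing in SK-OV-3 (left), in TOV-21G (middle) and between control lines (right), each point 1 probe, filled where the adjusted p is below 0.05, and each vertical bar the median. In TOV-21G the cyclin and pocket protein lists have medians of -0.42 and -0.56 and the p53 targets 0.34, while in SK-OV-3 the 5 related lists have medians between -0.10 and 0.09.

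Genes that control CDK inhibitor transcription gave 24 tested probes of 20 genes. In TOV-21G 0 of them passed (median -0.24), where 3.07% of all probes did (median 0.01). In SK-OV-3 0 of them passed (median 0.09), where 0% of all probes did (median -0.01). The members with the smallest p in TOV-21G were EZH2, the methyltransferase that represses the CDKN2A locus (-0.82, adjusted p = 0.0826), MAX, the partner of MYC (0.80, adjusted p = 0.0986), SP1, a factor that binds GC boxes of the kind in the CDKN1A promoter above (-0.92, adjusted p = 0.125), and ID1 (-0.75, adjusted p = 0.195). In SK-OV-3 they were MXD4, a repressor that competes with MYC for MAX (1.75, SE 0.21, adjusted p = 0.0591), and KLF6, an activator of CDKN1A (1.49, SE 0.28, adjusted p = 0.183). For MXD4 the arrays read 10.97 and 10.81 in control and 12.74 and 12.54 in silenced SK-OV-3. In other processing MXD4 passed in SK-OV-3 in 5 alternatives (adjusted p = 0.00359 to 0.0326), KLF6 there in 3 (0.0341 to 0.0480) and EZH2 in TOV-21G in 4 (0.0302 to 0.0497). The mean change of both lines in MXD4, 1.13, passed (limma adjusted p = 0.0275), and 0 other probes of the list did. In that mean 1.99% of all probes passed.

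Genes that degrade CDK inhibitors, or the machinery for it, gave 19 tested probes of 15 genes, of which 3 fell and 0 rose in TOV-21G (median -0.26). Across all tested probes 1.97% passed as lower and 1.1% as higher, with a median of 0.01. SKP2 is the F-box protein that marks p21 and p27 for destruction. It read 12.48 on both control arrays and 11.55 and 11.20 in silenced TOV-21G, and fell by 1.10 (SE 0.23, limma adjusted p = 0.0494). That call was lost with any 1 of the 8 arrays left out (adjusted p = 0.0724 to 0.228), and its second probe changed by -0.93 without passing (0.0770). CDC20, an activator of the anaphase-promoting complex, fell by 1.48 (SE 0.23, adjusted p = 0.0266). UBE2C, the ubiquitin-conjugating enzyme of that complex, fell by 1.68 (SE 0.27, adjusted p = 0.0266) and was detected on 1 of 2 silenced arrays. On the intensities normalized by the authors the UBE2C change was -0.82. CKS1B, the cofactor of SKP2, differed by -1 and did not pass (SE 0.39, adjusted p = 0.213). In SK-OV-3 0 of 19 passed (median -0.07), with SKP2 at -0.72 (adjusted p = 0.373) and UBE2C at -0.58 (adjusted p = 0.544). Every call among the cyclin, pocket protein and turnover genes named here was lost with only the 4 TOV-21G arrays in the fit (adjusted p = 0.0995 to 0.138). Each was also lost without TOV-21G control replicate 1 (0.0979 to 0.228), control replicate 2 (0.0788 to 0.176) or silenced replicate 2 (0.0732 to 0.193). Without either silenced SK-OV-3 array all were lost except those of CDC25C and RBL1, at adjusted p-values of 0.0506 to 0.0738.

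Across the 8 arrays the members did not share 1 pattern, and the correlations that follow are descriptions over arrays that share the difference between lines. Both CDKN1A probes correlated at 0.95 with each other, and the brighter one at 0.87 with CDKN2A, -0.76 with CDKN2D, -0.36 with CDKN3 and 0.03 with CDKN2B. Among 9878 tested probes of other named genes, the pattern most like the brighter CDKN1A probe was that of PIK3IP1 (Pearson r = 0.996), PDE4D (0.994) and CEMIP2 (0.993). For the dimmer CDKN1A probe it was MRPS33 (0.995), TMC4 (0.993) and NHERF1 (0.993). CDKN3 was closest to H2AZ1 (0.972), NUSAP1 (0.956) and KEAP1 (0.945), of which H2AZ1 encodes a histone variant and NUSAP1 a spindle protein. CDKN2D was closest to CRTC1 (0.965), CDKN2A to ST6GALNAC4 (0.991) and CDKN2B to CGRRF1 (0.932).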

How the data were processed

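Per the labels, total RNA of transfected cells was amplified to biotin-labelled cRNA and hybridised to 8 Illumina arrays. The deposited values, per the file headers, were non-normalized bead intensity values, with a detection p-value per probe and array. BeadStudio 2 is named in the submitters' processing notes. The authors also deposited normalized intensity values, and how they normalized them is not given in the sources used here.

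Of 24531 probes, 21838 carried 1 symbol, 2693 none and 0 several in the annotation. With limma 3.58.1 (R 4.3.3), background was corrected by normexp, inferred from detection p-values with an offset of 16, and log2 intensities were quantile normalized. Probes with detection p below 0.01 in at least 2 arrays were tested (10888 kept, 13643 not), each as itself. limma fitted 4 group means to all 8 arrays (4 residual and 3.952 prior degrees of freedom) and gave 2-sided p-values adjusted by Benjamini-Hochberg over all tested probes, with a threshold of 0.05. SE and 95% intervals are from this fit. A test of 2 against 2 arrays by exact permutation cannot go below p = 0.333 and was not used. A group undetected on both arrays gives a fold as a bound, for this processing only. Scripts were tested on simulated data, and matplotlib 3.10.9 (Python 3.11.15) drew the figures.

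Members and gene lists were chosen with earlier results of these data known. Named were every member probe, CSE1L, up to 4 genes per list with the smallest p in TOV-21G and up to 2 in SK-OV-3, and the 3 probes most correlated with each member probe. Experiment numbers were taken from the labels to pair arrays within a line. Same-numbered deviations correlated at 0.121 in SK-OV-3 and 0.548 in TOV-21G, 1 correlation each, and at -0.131 between control lines, where they were not taken to pair.

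Results were recomputed with a replicate block, without each array in turn, with median scaling, without background correction, with an offset of 50, the authors' values, no detection filter, detection on all 8 arrays, 1 probe per gene, a threshold of 0.01, a trend and robust spread, and only the arrays compared. No slide was given, so no slide block was run.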

Additional observations from a re-analysis of the deposited data

Results flagged for a closer look

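CDKN3 (ILMN_1666305) stood out because silenced minus control was above 0 in both same-numbered pairs of SK-OV-3 arrays (0.13 and 0.41) and below 0 in both pairs of TOV-21G arrays (-0.77 and -1.14). Subtracting the SK-OV-3 change from that in TOV-21G gave -1.23 (SE 0.59, 95% interval -2.59 to 0.14), which did not pass over all probes (limma adjusted p = 0.542). With single arrays left out it ran from -1.83, without silenced TOV-21G replicate 1, to -0.64, without silenced TOV-21G replicate 2, and the TOV-21G change of -0.96 ran from -1.55 to -0.37 without the same arrays. Across all 10888 probes 0 passed this test by limma, and 1085 had an unadjusted p below 0.05.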

How the results depend on the processing

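Over member probes and named genes, 1230 results were recomputed under alternatives, and 1089 kept their direction and their side of the threshold, 97 lost a call, 24 gained one and 20 changed sign. The 1 CDK inhibitor probe called in TOV-21G silencing, ILMN_1787212, was not tested with detection on all 8 arrays or with 1 probe per gene, so the count there was 0. Where it was tested, the count became 0 at a threshold of 0.01 and with only that line's 4 arrays. The call was not kept in every fit with a single array left out. The count for the mean of both lines became 1 with no background correction, an offset of 50 and the authors' values, and stayed at 0 with arrays left out. The count for the difference between lines became 1 on the authors' values. The call gained in the mean and in the difference was that of ILMN_1787212, undetected in SK-OV-3, so nothing is read from it. The 4 calls between control lines became 2 at a threshold of 0.01. They also became 2 with detection on all 8 arrays, where ILMN_1787212 and the CDKN2A probe were not tested. Leaving out single arrays lowered that count in some fits. In SK-OV-3 silencing the count was 0 in every alternative.

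Values near 0 changed sign. CDKN2D in the mean of both lines became -0.05 with median scaling, the difference between lines for ILMN_1784602 became 0.08 with median scaling and 0.09 on the authors' values, and that of CDKN2A became 0 with an offset of 50. With single arrays left out, ILMN_1784602 ran from -0.26 to 1.07 in SK-OV-3 and from -0.78 to 0.55 for the difference between lines. ILMN_1787212 in SK-OV-3 ran from -0.70 to 0.13, and CDKN2D there from -0.55 to 0.28. CDKN2A ran from -0.73 to 0.04 in TOV-21G and from -0.26 to 0.50 for the difference. In the mean of both lines CDKN2B ran from -0.05 to 0.26 and CDKN2D from -0.12 to 0.30, and CDKN3 between control lines from -0.23 to 0.56.

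With the replicate block, member counts were the same in all 5 comparisons (1 in TOV-21G silencing, ILMN_1787212 at adjusted p = 0.0265), while calls over all probes rose from 334 to 613 in TOV-21G and from 217 to 481 in the mean. With the numbers crossed between control lines, an alternative chosen after seeing the data, all-probe calls were 4123 against 3585, and CDKN2D no longer passed (0.0538), which left 3 members. Over the alternatives, SK-OV-3 silencing gave 0 to 25 all-probe calls, TOV-21G silencing 0 to 613, the mean 0 to 500, the difference 0 to 16 and the control lines 2089 to 4123. All-probe calls in TOV-21G silencing fell to 0 with only the 4 TOV-21G arrays in the fit and at a threshold of 0.01. Leaving out single arrays also lowered them. Median scaling shifted the median of all probes in SK-OV-3 to -0.15 and in the mean to -0.11, and split TOV-21G calls into 74 higher and 242 lower against 120 and 214, and those of the mean into 48 and 163 against 96 and 121. The causes of these changes were not tested, beyond the fewer arrays or probes that some alternatives hold. With 2 arrays per group, the intervals of the 6 tested members are wide, and a difference that did not pass is not shown to be absent.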
